A study of Homo sapiens with 2 samples.

Results

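The signaling lymphocytic activation molecule (SLAM) family receptors and their SAP adaptors were followed through RNA-seq of Ramos and Ramos640 cells. The group held 8 receptor genes (SLAMF1, CD48, LY9, CD244, CD84, SLAMF6, SLAMF7 and SLAMF8) and 2 adaptor genes (SH2D1A and SH2D1B), taken by their symbols from the 37122 rows of the count table. They were chosen as a family because SH2D1A and SLAMF7 were far higher in Ramos640, so the fold changes below are a description of these genes and carry no test. Ramos is a Burkitt's lymphoma (BL) cell line of B-cell origin. Ramos640 was derived from it by escalating rituximab in the presence of normal human serum, a source of complement, and is resistant to complement-dependent cytotoxicity (CDC). To hold that resistance, Ramos640 received rituximab with 20% serum every 21 days, at 640 mg/mL by the sample labels and 640 μg/mL by the study's methods, whereas no treatment is given for Ramos. Both lines grew in the same medium, and the labels do not say whether Ramos640 is a clone. RNA from 3 passages of each line was pooled into 1 library, so no difference between the lines has a replicate check, and all intervals cover counting error only. In such bulk RNA, fewer cells that express a gene and less RNA per cell cannot be told apart.

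SLAM receptors are immunoglobulin-like surface proteins of blood cells. Most of them bind a copy of themselves on the neighbouring cell, whereas CD244 binds CD48, which is held in the membrane by a lipid anchor and has no signaling tail. Tyrosine motifs in the tails of the other receptors, SLAMF8 aside, recruit SAP (encoded by SH2D1A) or EAT-2 (encoded by SH2D1B), small adaptors made of little more than an SH2 domain. SAP brings the kinase Fyn to the receptor and keeps phosphatases away. It is known mainly from T cells and NK cells, and its loss causes X-linked lymphoproliferative disease. SLAMF7 is abundant on plasma cells, is the target of the myeloma antibody elotuzumab, and signals through EAT-2 rather than SAP.

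The libraries held 38030090 reads for Ramos and 30871826 for Ramos640, and counts were scaled by median-of-ratios size factors of 1.14 and 0.876. A count of 0 allows up to 3 reads, or 0.0789 and 0.0972 CPM (the reads scaled to a common library total). All 8 B cell markers examined had at least 1904 reads in each library. MS4A1, which encodes the rituximab target CD20, had 9654 reads in Ramos against 1904 in Ramos640 (log2 fold change -1.96).

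The stretches of DNA before 4 of these genes are shown first, to set the adaptor gene with nearly all its reads in Ramos640 beside the adaptor gene that had no reads and beside the 2 most abundant receptor genes. Each is the 250 bases before the start that RefSeq gives on GRCh38.p14, 5′ to 3′ on the strand of the gene. Capitals mark matches, on either strand, to any of 6 motifs searched: the E-box CANNTG, the AP-1 motif TGANTCA, the octamer ATGCAAAT, the IRF motif (GAAA repeated after any 2 bases), the TATA box TATAAA and the kappa B motif. SH2D1A is on the plus strand at chrX:124346313-124346562, and the other 3 are on the minus strand, SH2D1B at chr1:162412137-162412386, CD48 at chr1:160711823-160712072 and SLAMF6 at chr1:160523256-160523505.
SH2D1A: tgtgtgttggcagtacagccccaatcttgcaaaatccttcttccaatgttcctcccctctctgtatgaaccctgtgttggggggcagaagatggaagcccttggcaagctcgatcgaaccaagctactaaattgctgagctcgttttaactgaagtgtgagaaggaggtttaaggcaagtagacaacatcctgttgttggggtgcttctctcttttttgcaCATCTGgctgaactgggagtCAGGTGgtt
SH2D1B: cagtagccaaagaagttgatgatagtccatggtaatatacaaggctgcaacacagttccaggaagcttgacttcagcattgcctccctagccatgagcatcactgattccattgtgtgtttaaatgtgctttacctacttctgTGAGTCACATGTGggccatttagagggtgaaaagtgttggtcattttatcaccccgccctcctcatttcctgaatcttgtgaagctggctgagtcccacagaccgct
CD48: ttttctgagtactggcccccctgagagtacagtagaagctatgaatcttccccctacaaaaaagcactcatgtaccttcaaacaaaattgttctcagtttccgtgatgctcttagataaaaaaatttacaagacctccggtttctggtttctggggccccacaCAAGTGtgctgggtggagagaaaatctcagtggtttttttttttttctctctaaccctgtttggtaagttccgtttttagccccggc
SLAMF6: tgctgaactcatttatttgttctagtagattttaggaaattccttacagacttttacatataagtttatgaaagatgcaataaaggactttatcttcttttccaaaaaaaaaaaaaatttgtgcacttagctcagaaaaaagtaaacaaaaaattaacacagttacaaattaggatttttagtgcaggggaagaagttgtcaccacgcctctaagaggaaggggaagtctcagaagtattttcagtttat
The SH2D1A stretch held 2 E-boxes within its last 29 bases and none of the other 5 motifs. In SH2D1B, 2 overlapping E-boxes ran into an AP-1 match, while CD48 held 1 E-box and SLAMF6 no match. Among 35116 RefSeq promoters of the same length, 61.8% held an E-box and 6.57% an AP-1 match, so an E-box before a gene is common. The GC content was 48.4% before SH2D1A, 46.4% before SH2D1B, 43.2% before CD48 and 30.8% before SLAMF6, against a median of 58% over these promoters.

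Among the adaptors, SH2D1A was nearly absent in Ramos and at a clear level in Ramos640. Ramos gave 6 reads and Ramos640 gave 478, or 0.158 and 15.5 CPM. At the Ramos level, 4.61 reads would have been counted in the Ramos640 library. The scaled counts were 104-fold higher in Ramos640, with a 95% interval from 47.3 to 284. On the log2 scale with 1 added to each scaled count, the change was 6.45, the fifth-highest rank among the 18778 genes whose reads summed to 10 or more over the libraries. A pseudocount of 10 lowered it to 5.19. The other adaptor gene, SH2D1B, had 0 reads in both libraries.

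The receptor that stood out was SLAMF7. Its reads numbered 21 in Ramos and 426 in Ramos640, or 0.552 and 13.8 CPM. At the Ramos level, 16.1 reads would have been counted in Ramos640. The scaled counts were 26.4-fold higher in Ramos640, with an interval from 17.1 to 43.1, and the log2 fold change was 4.65. SLAMF7 ranked 23rd from the top among the genes with at least 10 reads, and it ranked 9th among the 13677 genes with at least 100 reads, where SH2D1A ranked 4th. Among genes with at least 100 reads over both libraries, those with the nearest log2 fold change were CCDC85A (5 and 125 reads, 4.74) and ST3GAL6 (5 and 138 reads, 4.88) for SLAMF7. For SH2D1A they were HFM1 (1 and 165 reads, 6.66) and PDZRN4 (0 and 125 reads).

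**Figure D1:**
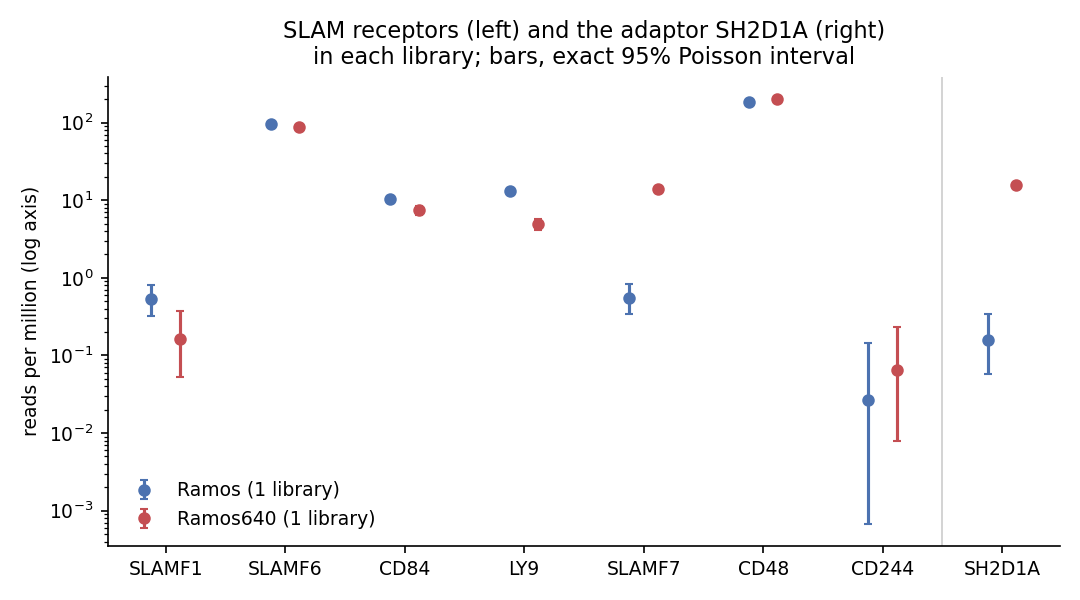
CPM on a log axis for the 8 genes of the family that had any read, in the Ramos library (blue) and the Ramos640 library (red), with exact 95% Poisson intervals. SLAMF7 and SH2D1A sit at 0.552 and 0.158 in Ramos and at 13.8 and 15.5 in Ramos640, while CD48 and SLAMF6 stay near the top in both.

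Of the homophilic receptors, LY9 and SLAMF1 were lower in Ramos640. LY9, which encodes CD229, had 496 reads in Ramos and 152 in Ramos640. Its scaled counts were 2.51-fold lower in Ramos640 (interval from 2.09 to 3.03), and its log2 fold change was -1.32. SLAMF1, which encodes CD150, the receptor for measles virus, was barely read in either line. Its 20 reads in Ramos and 5 in Ramos640 gave a log2 fold change of -1.47, and the interval of the ratio, taken without the added count, ran from -3.39 to -0.16. The interval reaches well inside 1.5-fold, so the size of this difference was not resolved at this depth.

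The remaining receptors stayed within 1.5-fold. CD84, a homophilic receptor of B cells, monocytes and platelets, gave 395 reads in Ramos against 228 in Ramos640. Its log2 fold change was -0.41, and the counting interval ran from -0.65 to -0.17. SLAMF6, also known as NTB-A, had 3623 and 2692 reads, which came to 3175 and 3072 after scaling. Its log2 fold change of -0.047 had an interval from -0.12 to 0.025, and the sign depended on the processing, with -0.13 on library totals and 0.04 after removal of the trend over GC content. CD48 had 6933 and 6219 reads, or 6075 and 7097 after scaling. Its log2 fold change was 0.22, with an interval from 0.17 to 0.27. CD244, the receptor for CD48, had 1 read in Ramos and 2 in Ramos640, and SLAMF8 had none in either, so no fold is given for these 2 genes.

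Of the 10 genes, 7 had at least 10 reads. Past the 1.5-fold limit of the study, 2 of these 7 were higher in Ramos640 (SH2D1A and SLAMF7), where 14.6% of all 18778 genes tested were higher. Another 2 were lower (LY9 and SLAMF1), where 17.3% of all genes tested were lower and 31.9% were past the limit on either side. Requiring the whole counting interval to lie past 1.5-fold left SH2D1A and SLAMF7 as higher and LY9 as lower, against 5.79% and 7.35% of all genes tested. The members were chosen on this same difference, so nothing is read from these counts. Their median log2 fold change was -0.047, beside -0.015 for all genes tested. No gene of the family stood close to the 1.5-fold limit on the higher side, where CD48 was the next below it at 1.17-fold and SLAMF7 the next above it at 26.4-fold. On the lower side, CD84 at 1.33-fold lower and LY9 at 2.51-fold lower stood on either side of it.

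**Figure D2:**
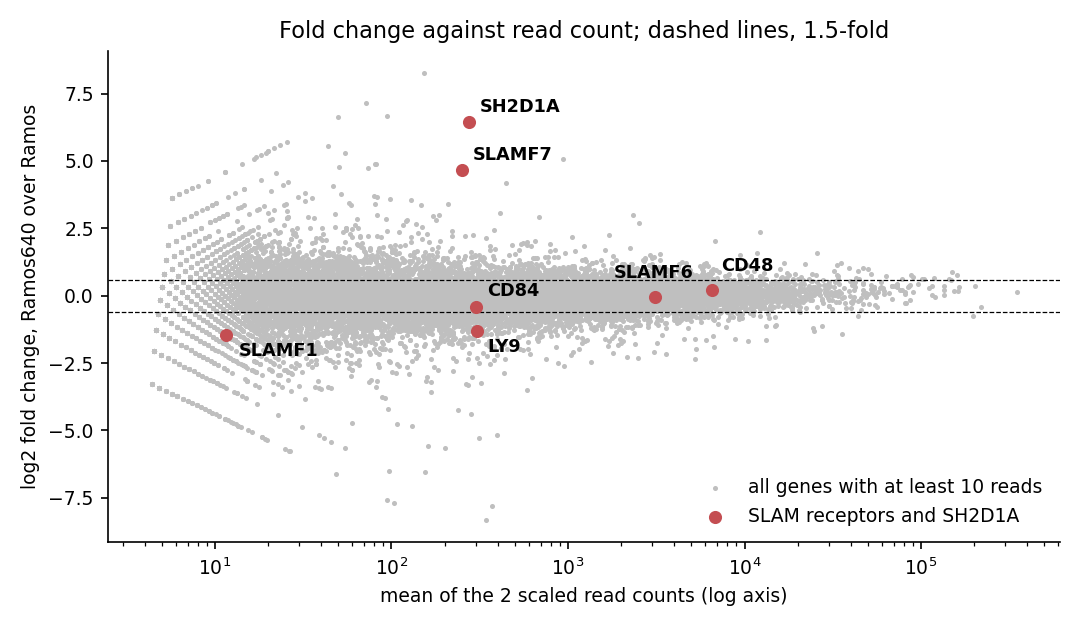
Log2 fold change of Ramos640 over Ramos against the mean scaled read count (log axis) for the 18778 genes with at least 10 reads (grey) and the 7 SLAM family and adaptor genes among them (red), with dashed lines at 1.5-fold. SH2D1A (6.45) and SLAMF7 (4.65) lie above nearly all genes of similar read count, and the other 5 lie between -1.47 and 0.22.

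Levels of different genes were compared per length, as RPKM, which divides the CPM by the length of the annotated exons in kilobases. CD48 led in both libraries, with 56.0 RPKM in Ramos and 61.9 in Ramos640. SLAMF6 followed with 34.7 and 31.8. In Ramos a wide gap separated these 2 from LY9 (1.43 RPKM) and CD84 (1.12). Below them, SLAMF1 (0.131), SLAMF7 (0.114) and SH2D1A (0.0317) were low, and the intervals of SLAMF1 and SLAMF7 overlapped. In Ramos640, SLAMF6 was followed by SH2D1A (3.11 RPKM, interval from 2.84 to 3.40) and then SLAMF7 (2.86, from 2.59 to 3.14), whose intervals overlapped. CD84 (0.798) and LY9 (0.540) came after them, in an order that reverses to 0.90 and 2.03 when the MANE Select transcript, a single reference transcript per gene, sets the length. SLAMF1 (0.0404) and CD244 (0.0224) were the lowest of the genes with any read in Ramos640, with overlapping intervals. Among all genes tested with a known length, SH2D1A moved from the 1.96th percentile of RPKM in Ramos to the 48.3rd in Ramos640, and SLAMF7 from the 7.15th to the 46.7th. Both thus reached the middle of the expressed genes, far under CD48 at the 93.2nd and 93.9th percentiles.

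The receptor pool as a whole was little altered. The 8 receptors together held 11489 reads in Ramos and 9724 in Ramos640, a scaled ratio of 1.10 (interval from 1.07 to 1.13). CD48 made up 59.9% of the receptor RPKM in Ramos and 63.2% in Ramos640, and SLAMF6 made up 37.1% and 32.4%. SLAMF7 went from 0.122% to 2.92%, while LY9 went from 1.53% to 0.551%. These shares depend on the length used, and by the MANE Select transcript CD48 made up 79.9% and 82.1%, SLAMF6 16.8% and 14.3%, SLAMF7 0.098% and 2.28%, and LY9 2.59% and 0.909%. Per length, SH2D1A stood at 0.0221 times LY9 in Ramos and at 5.76 times LY9 in Ramos640. Against SLAMF6, the most abundant receptor with a signaling tail, it stood at 0.000913 and 0.0979. By the MANE Select transcript, these ratios were 0.0131 and 3.40 for LY9 and 0.00202 and 0.217 for SLAMF6.

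The receptor genes lie together on chromosome 1, which allowed each to be read beside its neighbours. On GRCh37, the annotation places SLAMF6, CD84, SLAMF1, CD48, SLAMF7, LY9 and CD244 in this order between positions 160454820 and 160832677, and SLAMF8 ends 648 kb before SLAMF6. SLAMF7 (160708847 to 160724611, plus strand) has 7 exons in its MANE Select transcript. It lies 27.2 kb after CD48 and 41.3 kb before LY9. Its neighbours in the cluster did not share its change, with CD48 at 0.22 and LY9 at -1.32 against 4.65 on the log2 scale. LY9 ends only 1.90 kb before CD244, which had almost no reads.

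The region was not uniformly high or low. Between SLAMF8 and CD244, 11 other protein-coding genes had at least 10 reads, all of them in the gap between SLAMF8 and SLAMF6. Of these, 5 were higher and 1 was lower past 1.5-fold, with a median log2 fold change of 0.29. Within 1 Mb outside, 24 such genes had 2 higher and 7 lower, with a median of 0.013. Over all genes tested, 14.6% were higher and 17.3% lower, with a median of -0.015. Inside, the higher genes CFAP45 (15 and 22 reads), PIGM (26 and 35) and NHLH1 (2 and 8) and the lower gene KCNJ10 (24 and 7) had few reads. The largest differences among genes with at least 100 reads in their higher library were IGSF8 (0.77), PEA15 (0.68) and NR1I3 (0.61) on the higher side and TSTD1 (-1.09), FCRLB (-1.05) and F11R (-0.79) on the lower side. The 3 on the higher side and IFI16 came within 1.5-fold with the GC trend removed, and NR1I3 did so on library totals and with a pseudocount of 10 as well. F11R and TSTD1 are also the nearest genes with at least 10 reads after the cluster. Before SLAMF8, the nearest at this minimum were AIM2, a sensor of cytosolic DNA, with 31 and 1 reads, and IFI16 (-0.76). They lie 639 and 772 kb before SLAMF8. The nearest before SLAMF6 were NHLH1, with its few reads, and NCSTN (1789 and 1580 reads, 0.20).

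**Figure D3:**
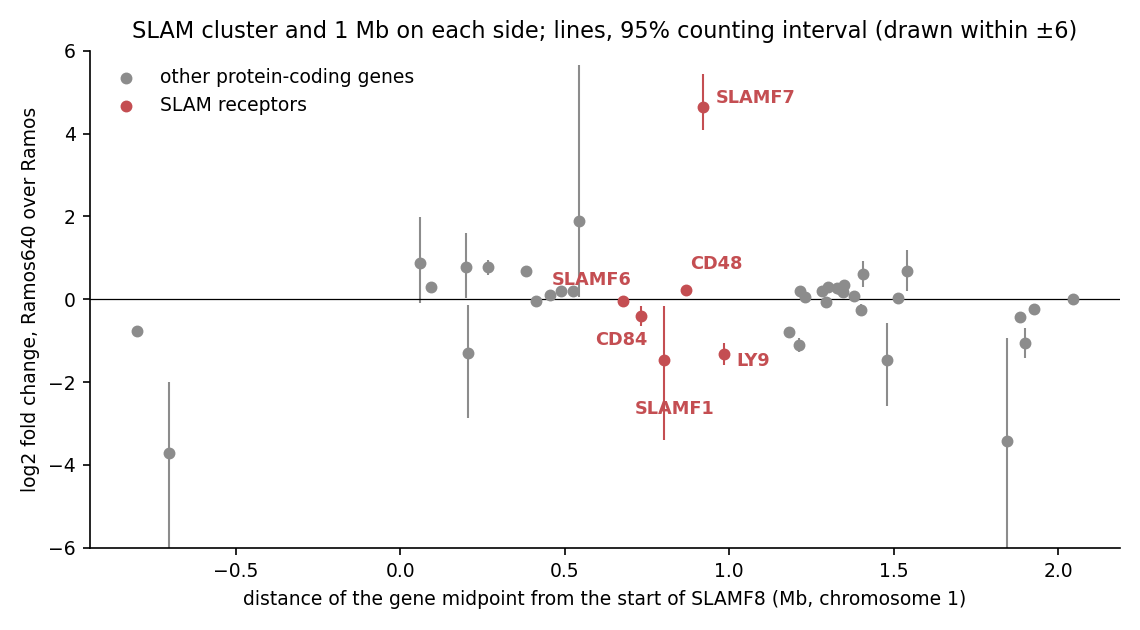
Log2 fold change of Ramos640 over Ramos (points) with 95% counting intervals (lines, drawn within 6 units of 0) for SLAM receptors (red) and other protein-coding genes (grey) with at least 10 reads, by distance of the gene midpoint from the start of SLAMF8 in Mb. SLAMF7 stands alone at 4.65 between CD48 at 0.22 and LY9 at -1.32.

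SH2D1A lies on chromosome X. Its MANE Select transcript runs from 123480413 to 123507010 on the plus strand of GRCh37 in 4 exons, while the whole gene record starts at 123361718 through non-coding transcripts. A non-coding transcript of STAG2, a cohesin subunit gene, covers the same stretch on the same strand, so reads there could have gone to either gene. STAG2 gave 2679 reads in Ramos against 1372 in Ramos640, and its log2 fold change of -0.58 was opposite in sign to SH2D1A. The nearest other genes with at least 10 reads were XIAP (471 and 295 reads, -0.29) and THOC2 (2920 and 1651, -0.44) upstream and TENM1 (19 and 17, 0.21) downstream. XIAP is the other gene in which loss causes X-linked lymphoproliferative disease. None of these 4 genes was past 1.5-fold on the main scale, but STAG2 crossed it with TMM factors and with library totals. Around SH2D1B, 14 genes within 1 Mb had at least 10 reads, of which 2 were higher and 3 lower. Over all genes tested, 14.6% were higher and 17.3% lower. Both higher genes, DDR2 (4 and 8 reads) and RGS4 (8 and 12), had intervals that included no change. Of the lower genes, FCGR2B had 11 and 0 reads, RGS5 81 and 21, and FCRLB 249 and 92. The closest of the 14 genes were C1orf226 (8 and 5 reads) and NOS1AP (5 and 5) on one side and UHMK1 (-0.26) and UAP1 (-0.0052) on the other.

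Other genes of the SLAM pathway were taken from a list of 26 kinases, phosphatases and adaptors known to act with these receptors. Of these, 25 had at least 10 reads. The median log2 fold change was -0.016, and 3 genes were lower past 1.5-fold, against 17.3% of all genes tested. PIK3C3, the lipid kinase Vps34 that binds SLAMF1 in phagocytes, had 652 and 205 reads (-1.28). CBL, a ubiquitin ligase, had 2210 and 1077 (-0.66), and RASA1, a Ras GTPase activator, had 1215 and 618 (-0.59, and -0.51 with the GC trend removed, inside the limit). Some genes within the limit are named here for their roles, after their values were seen. FYN, the kinase that SAP recruits, had 2410 reads in Ramos and 1806 in Ramos640 (-0.035, interval from -0.12 to 0.053). The phosphatase genes that compete with SAP for the receptor tails stayed within 1.5-fold as well, with PTPN6 (SHP-1) at 0.45, INPP5D (SHIP-1) at 0.093 and PTPN11 (SHP-2) at -0.016. The kinase gene LYN (9716 and 5018 reads, -0.57) was within the limit on the main scale but past it on library totals (-0.65). FGR (482 and 280 reads, -0.40) was past it with the GC trend removed (-0.59). FYN and the 3 phosphatase genes were thus read in both lines, whereas SH2D1A itself had 6 reads in Ramos. Of the relatives of the family, CD2 and SLAMF9 had no reads, and the CD2 ligand CD58 had 50 and 47 (0.29, interval from -0.31 to 0.90).

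**Figure D4:**
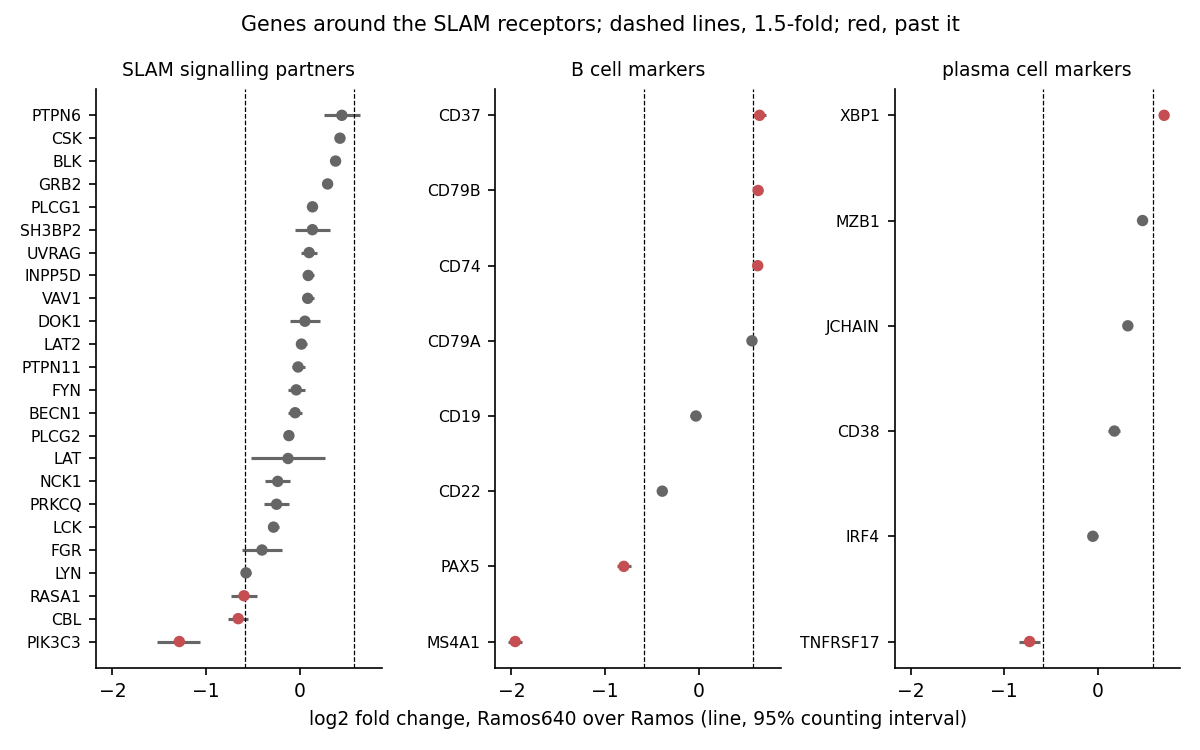
Log2 fold change of Ramos640 over Ramos with 95% counting intervals for genes with at least 100 reads over both libraries of the SLAM signalling partners (left), B cell markers (middle) and plasma cell markers (right); dashed lines mark 1.5-fold and red points lie past it. PIK3C3 (-1.28) and MS4A1 (-1.96) lie farthest to the left in their lists.

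Since SH2D1A and SLAMF7 are known from other lymphocytes, markers of those cells were read beside them. Of 10 T cell markers, 6 had no reads in either library, among them CD3D, CD5, CD6 and CD8A. The summed level was 1.58 CPM in Ramos and 2.11 in Ramos640. CD3E had 1 and 31 reads, a log2 fold change of 4.28 (interval from 2.75 to 10.7). CD4 had 11 and 19 reads, CD28 had 43 and 14, and CD3G had 5 and 1. Of the 3 with at least 10 reads, CD3E and CD4 were higher and CD28 was lower past 1.5-fold. Over all genes tested, 14.6% were higher and 17.3% lower. Of 8 NK cell markers, KLRF1, NCR1, GNLY and GZMB had no reads, and the summed level was 0.631 and 1.26 CPM, with PRF1 at 10 and 26 reads, NCAM1 at 0 and 10, and NKG7 at 13 and 3. The 8 monocyte and macrophage markers summed to 0.578 and 0.551 CPM, with FCGR3A and ITGAM at 0, CSF1R at 3 and 9 reads, and S100A8 at 13 and 4.

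The plasma cell markers were mixed. SDC1, which encodes the plasma cell surface marker CD138, had 1 read in Ramos and 3 in Ramos640. Of the 7 other markers, all with at least 10 reads, 2 were higher and 1 was lower past 1.5-fold, with a median log2 fold change of 0.32. Beside this list and the B cell list below, 14.6% of all genes tested were higher and 17.3% lower, with a median of -0.015. XBP1, a transcription factor of secretory cells, had 18028 and 22624 reads (0.71). PRDM1, which encodes Blimp-1, had 16 and 31 (1.28), with an interval from 0.42 to 2.30 that reaches inside 1.5-fold. TNFRSF17, which encodes BCMA, had 1887 and 874 (-0.73, and -0.55 with the GC trend removed, inside the limit). JCHAIN (0.32), MZB1 (0.48), CD38 (0.18) and IRF4 (-0.053) stayed within 1.5-fold on the main scale. With the GC trend removed, JCHAIN was past the limit as higher (0.64). The summed level of the 8 markers was 2684 CPM in Ramos and 3307 in Ramos640, and its largest part was JCHAIN, at 1439 and 1701 CPM. Among the 8 B cell markers, with a median of 0.27, CD37 (0.65), CD79B (0.64) and CD74 (0.63) were higher, and PAX5 (-0.80) was lower together with MS4A1. The 3 higher calls were lost on library totals, where CD37 was at 0.57 and CD74 and CD79B were at 0.55 and 0.56, and with the GC trend removed, where the 3 genes lay between 0.41 and 0.45. The part of these markers in the SLAMF7 and SH2D1A differences was not tested.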

How the data were processed

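RNA was pooled from 3 passages of each cell line and sequenced on the Ion Proton platform, 1 library per line. Per the study's methods, the authors removed adaptor sequences and aligned the reads to GRCh37 with MapSplice, and they deposited raw read counts per gene without normalization. The program that counted the reads, the gene annotation it read, whether it used strand and how it treated multiply mapped reads are not given in the sources used here, so reads of overlapping genes may be split either way.

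From the counts, median-of-ratios size factors were computed as in the DEseq algorithm that the study used, and log2 fold changes were taken with a pseudocount of 1. Genes needed 10 or more reads over both libraries (18778 of 37122), and a call meant a fold past 1.5. Intervals at 95% were Clopper-Pearson for ratios and exact Poisson for levels. With 1 library per line no dispersion can be estimated, so no test was run and no p-value is given. RPKM values used the union of exons in GENCODE v44lift37 on GRCh37, where all 10 genes matched by symbol. edgeR (4.0.16) in R (4.3.3) gave TMM factors. The size factors, intervals and GC trend were tested on simulated data. The simulated counts held Poisson error only, so this could not check spread between cultures. Promoter sequences came from the RefSeq table (GRCh38.p14), which was read for 7 of the 10 genes. The members, gene lists and rules were chosen with earlier results of these data known. Genes named are all members. List genes past 1.5-fold are named with at least 100 reads in their higher library (where over 6, the 3 largest on each side). The nearest 2 protein-coding neighbours with at least 10 reads on each side are named as well. So are the 2 genes nearest in fold among those with at least 100 reads over both libraries, and others where said or to show low reads. The value of 1 gene in the list of signalling partners is not reported here.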

Additional observations from a re-analysis of the deposited data

How the results depend on the processing

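The alternatives changed the scaling, the pseudocount, the filter, the GC correction and the gene length, and the MANE Select length was chosen after seeing the data. With 1 library per line the counting intervals are the only error, and CD244, SLAMF8 and SH2D1B had too few reads for a fold. No paired analysis was possible because each cell line had 1 library, and leaving out a library would leave its line with none. The cause of the shifts was not tested, except where an alternative removes genes by its own construction.

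SH2D1A and SLAMF7 stayed higher and LY9 stayed lower past 1.5-fold under all 5 alternatives of scaling, pseudocount and GC content, with log2 fold changes from 5.19 to 6.71, from 4.13 to 4.72 and from -1.40 to -1.28. The largest shift was that of SH2D1A to 5.19 with a pseudocount of 10. SLAMF1 ranged from -1.60 to -0.81 and CD84 from -0.49 to -0.31. CD48 came to 0.14 on library totals and 0.39 with the GC trend removed. SLAMF6 came to -0.13 and 0.040 under the same settings. The number of members lower past 1.5-fold went from 2 to 1 with a minimum of 100 reads, which drops SLAMF1, and to 1 with the whole interval required.

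Over all genes, the number higher went from 2733 to 1809 with the GC trend removed (15762 genes with a known GC content), 4902 with a minimum of 1 read and 1359 with 100 reads. The number lower went from 3248 to 5547 and 1720 under these 2 minimums. The TMM factors and library totals moved the median log2 fold change by -0.0098 and -0.080. The share of calls that were higher was 45.7%, and 38.0% on library totals.

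With 100 reads as the minimum, the calls in the lists were 0 for the T cell, NK cell and monocyte lists, 2 around SH2D1B and 8 around the SLAM cluster. With 1 read, they were 6 for monocytes and 24 around the cluster. With a pseudocount of 10, they were 1 for monocytes and 3 around SH2D1B. B cell calls went from 5 to 2 on library totals and to 2 with the GC trend removed, both without CD37, CD74 and CD79B. Calls around SH2D1A went from 0 to 1 with TMM factors and to 1 on library totals.

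By the longest transcript, RPKM values in Ramos and Ramos640 were 101.7 and 112.4 for CD48 and 2.57 and 0.969 for LY9. They were 1.27 for CD84 in Ramos, and 4.03 for SH2D1A and 3.90 for SLAMF7 in Ramos640. By the MANE Select transcript, they were 166 and 184 for CD48, 5.39 and 2.03 for LY9, 0.0706 and 6.92 for SH2D1A, 0.204 and 5.10 for SLAMF7, and 1.27 for CD84 in Ramos.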
